A study of Mus musculus with 76 samples.

Results

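Control cultures of C57BL/6J (B6) mouse cells were compared at 2 stages of neuronal differentiation, 4 libraries collected during maturation of the neurons against 6 collected while neural progenitor cells (NPC) were differentiating. The members are the libraries whose deposited condition names B6, the stage and control treatment with no injury: 10 libraries of 70 in the series, deposited as 11 samples of 76 because 1 NPC library was sequenced in 2 runs, whose counts were added. Both groups were grown from embryonic stem cells of the inbred strain B6 and had neither ID-8, which blocks the kinase Dyrk1a and was given to other cultures, nor axotomy. The labels name no engineered allele. The rest of the series adds the wild-derived strain WSB/EiJ (WSB), ID-8 and a stage of axonal injury. Polyadenylated RNA of whole cultures was sequenced from a stranded kit, and the counts do not separate cell types. A lower transcript level can therefore mean fewer cells of a type or less RNA per cell, and these cannot be told apart.

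Neural progenitors divide, hold the transcription factors Sox1, Sox2 and Pax6, and use Notch signalling through Hes genes to delay differentiation. When Notch ligands and proneural factors such as Neurog2 rise, daughter cells leave the cell cycle, switch from the splicing regulator Ptbp1 to neuronal regulators, and first make growth-cone proteins such as doublecortin and later the machinery of the synapse. Cultures from embryonic stem cells also form astrocytes, which come after neurons in development, and mesenchymal cells that are not neural.

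The libraries held 22882468 to 77430603 expected counts at the NPC stage and 29810506 to 33562814 at maturation, with 19607 to 21205 and 19570 to 20796 genes detected. Stage is bound to library preparation: the library numbers fall into ranges, with NPC replicates 1 to 3 in range 1, NPC replicates 4 to 6 in range 2 and all 4 maturation libraries in range 3, and the deposited batch column separates them in the same way. Stage and batch cannot be told apart in these 10 libraries. Between the NPC ranges, which are the same stage, 18 of 16843 genes passed an adjusted p of 0.05 with edgeR's quasi-likelihood test (2187 at an unadjusted p of 0.05). With 3 libraries on each side this test can miss differences, and the sample names differ within range 2. The count of 18 is therefore no measure of how small a batch difference was. The sample names split the maturation libraries into 2 pairs, replicates 1 and 2 named neuron ctl and replicates 3 and 4 named exp1012. Whether these pairs are separate culture experiments is not stated. Chi-square per degree of freedom over genes was 22.54 and 13.18 within these pairs and 153.9 to 240.8 between them, against 48.44 to 284.3 between NPC libraries and 2.398 between the repeat runs. By this measure the 2 libraries within each maturation pair are nearer to each other than any 2 NPC libraries, whose totals differ more. Sample names mark some cultures but do not say for every library whether it came from a separate one, so p-values measure only the spread between these libraries, which may be technical. Genes of the mitochondrial genome took 2% to 3.06% of the counts in NPC libraries and 13.1%, 10.1%, 8.3% and 6.61% in maturation replicates 1 to 4. With these transcripts left out of the totals, 4259 genes were higher and 3947 lower, beside 4292 and 3952 with them.

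The markers fit the labels only in part. Every NPC library read the progenitor genes Sox1 (17.6 to 55 CPM), Sox2 (131 to 245 CPM) and Nes (219 to 598 CPM), where CPM is the count scaled to the library size, adjusted by TMM. The same libraries also held the pluripotency gene Pou5f1 at 90.4 to 230.5 CPM and the immature neuron gene Dcx at 467 to 1400 CPM; genes of stem cells, progenitors and young neurons were thus read side by side. Every maturation library read Snap25 of the synapse (265 to 709.9 CPM), Gfap of astrocytes (197 to 1673 CPM) and Acta2 of smooth muscle (1109 to 2142 CPM), genes of 3 kinds of cell. Neuron markers did not all rise with Snap25. Syn1 was higher (2.41 ± 0.28), Map2 and Rbfox3 (0.59 ± 0.24) passed under 2-fold, Syt1 (0.57 ± 0.25) and Mapt did not pass, and Tubb3 was lower. Of 12 microglia genes only 3 had enough counts to be tested, with Csf1r (-2.92 ± 0.59) and Itgam (-1.48 ± 0.45) lower and Cd68 higher (1.31 ± 0.43), a call lost without maturation replicate 1 and under 4 other alternatives and reversed in the fit of all 70 libraries (-0.86). C1qa, C1qb, C1qc and Tyrobp were at 0 in all 4 maturation libraries, and Cx3cr1, Ptprc and Trem2 at 0 to 0.131 CPM, 0 to 0.064 CPM and 0 to 0.032 CPM. P2ry12 was above the NPC range of 0 to 0.0716 CPM, at 0.096, 0.261, 2.81 and 2.3 CPM, and Aif1 read 0.352, 0.294, 0 and 0 CPM. The 12 genes summed to 13.23 to 39.26 CPM at the NPC stage, 37.61 and 38.44 in neuron ctl and 17.17 and 22.28 in exp1012.

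The stages differed across most of the transcriptome. Of 16837 genes tested, 4292 were higher at maturation (25.5% of those tested) and 3952 lower (23.5%) by at least 2-fold at an adjusted p under 0.05, which is the call used throughout. A difference of any size passed for 11947 genes (71%), and the counts of each gene group are set against these shares. The median log2 difference over all tested genes was -0.01. Log2 differences are maturation minus NPC with their standard error, and p-values are from edgeR's quasi-likelihood test with Benjamini-Hochberg adjustment over all tested genes. Past 16-fold lay 726 higher and 823 lower genes. The libraries of 1 stage lay wholly above those of the other for 3878 of the higher and 3675 of the lower calls. Over all 16837 genes tested, called or not, the maturation libraries lay wholly above for 4887 and wholly below for 5204. Separation without overlap was thus common, and the statements on single genes and lists below are set against these counts. The first principal component of log CPM took 84.5% of the variance and separated the stages. The second (4.55%) separated the maturation pairs named neuron ctl and exp1012.

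The gene with the smallest p among those higher was Rasgrf1, a calcium-dependent exchange factor for Ras in neurons. It read 0.133 to 0.286 CPM with a median of 0.226 over the 6 NPC libraries and 241, 238, 227 and 185 CPM in maturation replicates 1 to 4, a log2 difference of 10.04 ± 0.20 (adjusted p = 2.7e-11). The maturation libraries lay together, far above all NPC libraries. Lynx1, which binds nicotinic acetylcholine receptors and limits plasticity, read 1.94 to 2.81 CPM with a median of 2.28 and then 162, 157, 178 and 173 CPM (6.20 ± 0.14, adjusted p = 5.47e-11). Lcn2, the secreted lipocalin of inflamed astrocytes, went from a range of 0.0143 to 0.205 CPM to 328, 361, 301 and 387 CPM (11.54 ± 0.33, adjusted p = 4.04e-10). Both genes separated the stages without overlap. The other 9 genes higher with the smallest p were Plekhb1, Inmt, Gas6 (a ligand of TAM receptors), Mt3 (the brain metallothionein), Vcam1, Rtl1, Glrb, Lbp and Ccn5, with log2 differences of 3.80 (Glrb) to 12.74 (Inmt). Fam216b and Gpr101 had no count in any NPC library and 12.6 to 58.5 CPM and 20.9 to 30.7 CPM at maturation, at least 3930-fold and 2880-fold higher against a floor of 3 counts over the NPC group. Gkn2 was also among the largest differences but uneven, at 39.9, 16.7, 0.785 and 3.94 CPM, high in replicate 1 and nearly absent in replicate 3.

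Among the lower genes Lin28a came first. This RNA-binding protein blocks maturation of let-7 microRNAs in early cells. It read 128 to 206 CPM with a median of 153 at the NPC stage and 0.096, 0.0327, 0.0604 and 0.0667 CPM at maturation (-11.25 ± 0.29, adjusted p = 2.15e-10), with no overlap and hardly a transcript left in any of the 4 libraries. Igf2bp3, an RNA-binding protein of early development, read 187 to 268 CPM with a median of 220.4 and then 0.736, 0.751, 0.604 and 1.13 CPM (-8.09 ± 0.23, adjusted p = 3.7e-10). Rcor2, a corepressor that works with REST and the demethylase Lsd1, read 155 to 242 CPM with a median of 173 and then 2.08, 2.55, 2.05 and 2.43 CPM (-6.31 ± 0.20, adjusted p = 7.72e-10). The stages did not overlap for either. Kif26a, Lmnb1 (lamin B1), Mycn, Nhlh2, Racgap1, Sinhcaf, Cdk1 and Jarid2 were among the 12 with the smallest p, with Cdk1 at -6.89, Racgap1 at -4.15 and Sinhcaf at -4.05. Ranked by the fitted log2 difference, Dppa5a, Pou5f1, Dbx1, Zscan4f, Dmrt1, Zfp978, Bin2 and Gsx1 came first. They had no count in any maturation library and were at least 524-fold (Gsx1) to 8720-fold (Dppa5a) lower. Because these are bounds, their rank against genes with counts at maturation, such as Lin28a, is uncertain.

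**Figure D1:**
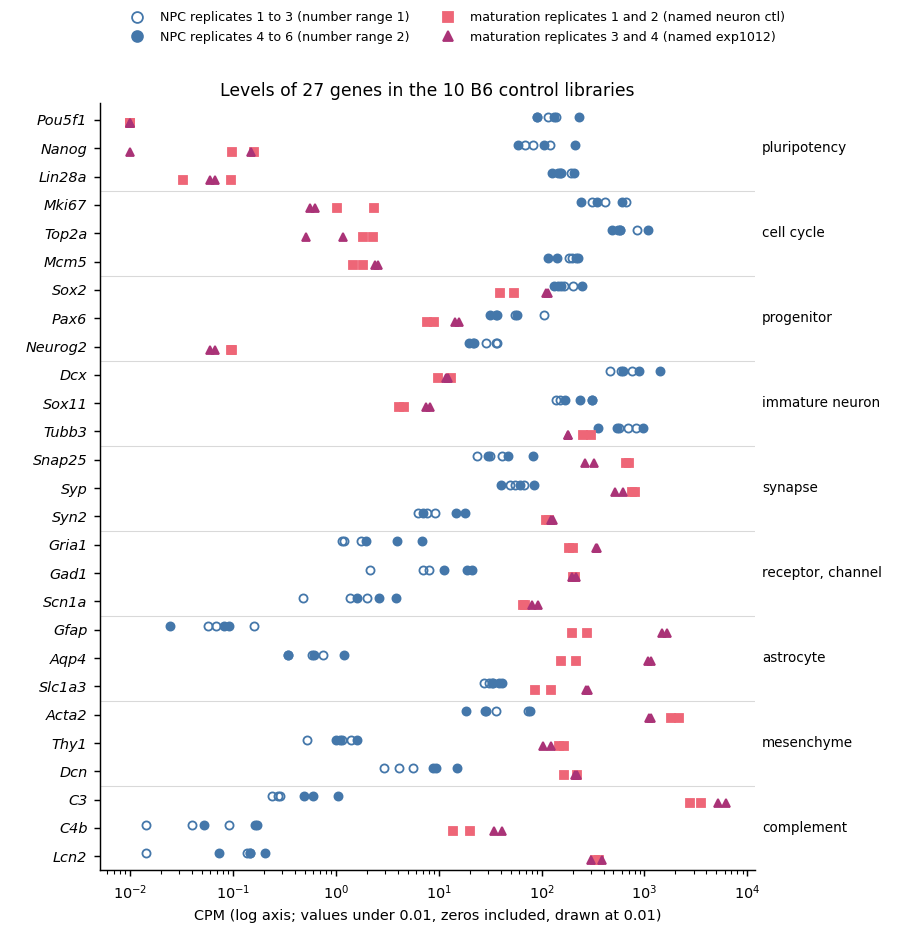
CPM of 27 genes (log axis) in each of the 6 NPC libraries (circles, open for number range 1 and filled for range 2) and the 4 maturation libraries (squares for neuron ctl, triangles for exp1012), grouped by role; values under 0.01, zeros included, are drawn at 0.01. Pluripotency, cell cycle and immature neuron genes lie to the left at maturation, and synapse, receptor, astrocyte, mesenchyme and complement genes to the right.

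Pluripotency genes were nearly gone at maturation. Of 16 tested, 15 were lower and none higher, with a median of -9.53, or -8.94 when genes at 0 are set to their bound. Pou5f1, which encodes the master regulator Oct4, read 90.4 to 230.5 CPM with a median of 124 over the NPC libraries and 0 in all 4 maturation libraries, at least 5540-fold lower. Nanog read 58.7 to 211 CPM with a median of 94.2 and then 0.16, 0.098, 0.151 and 0 CPM (-9.99 ± 0.61, adjusted p = 4.27e-08), and Utf1 from a range of 29.5 to 74.7 CPM with a median of 47.2 to 0.032, 0, 0.0906 and 0 CPM (-10.44 ± 0.56, adjusted p = 1.57e-08). For these genes the highest maturation library was far under the lowest NPC library. The orphan receptor Esrrb (3.46, 4.25, 6.01 and 6.3 CPM) and the factor Tfcp2l1 (12.5, 12.1, 14.6 and 17.8 CPM), also known from other tissues, kept low levels. Klf4 was the member that did not pass, at 8.47 to 29.2 CPM and then 27.3, 31.7, 17.7 and 20 CPM (0.27 ± 0.31, adjusted p = 0.46). Dppa5a belongs to a family with near-identical copies and Zscan4f to a gene cluster, so how their reads were split is uncertain.

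The cell cycle genes fell as a block. All 22 mitosis genes were lower, at -9 (Bub1) to -4.64 (Foxm1) with a median of -6.9. In each the 4 maturation libraries lay under all 6 NPC libraries, as in 5204 of all 16837 genes tested. Cdk1, the kinase that starts mitosis, read 79.4 to 139.8 CPM with a median of 116.5 and then 1.02, 1.24, 0.725 and 0.867 CPM (-6.89 ± 0.25, adjusted p = 1.57e-09). Cdc20, which activates the anaphase-promoting complex, read 101 to 166 CPM with a median of 137 and then 1.28, 2.16, 1.21 and 1.8 CPM (-6.42 ± 0.25, adjusted p = 2.23e-09). The kinases Plk1 (-7.02) and Aurka (-6.42) and the kinesin Kif20a (-7.11) were as far down. Summed over the 22 genes, the libraries held 2454 to 5185 CPM at the NPC stage, 30.31 and 39.01 in neuron ctl and 24.28 and 26.71 in exp1012.

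DNA replication genes fell less far. Of 24, 23 were lower and Gins4 passed under 2-fold (-0.98 ± 0.14), with a median of -3.41. Mcm5, a subunit of the replicative helicase, read 115.4 to 225 CPM with a median of 191 and then 1.47, 1.83, 2.38 and 2.57 CPM (-6.44 ± 0.28, adjusted p = 4.82e-09). Mcm7 of the same hexamer read 214 to 343 CPM with a median of 299 and then 11.7, 14.1, 14.2 and 16.4 CPM (-4.34 ± 0.20, adjusted p = 5.38e-09). Rrm2, the small subunit of ribonucleotide reductase, was -6.01 and Gins1 -4.87. Pcna, the sliding clamp that also serves repair, kept 58.9, 60.5, 34.1 and 39.1 CPM of 163 to 282 CPM (-2.20 ± 0.23). Each of the 24 genes lay wholly lower at maturation, as did 5204 of all 16837 genes tested.

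The promoters of both groups were searched for elements known from cell cycle control. The CHR (TTTGAA) and the CCAAT box (CCAAT) act through the MuvB and NF-Y complexes in genes of late cycle, and E2F sites (TTTGGCGC or TTTCCCGC) in genes of S phase. In the 250 bases before the RefSeq start (GRCm38.p6), searched on both strands, TTTGAA stood in 7 of 17 mitosis promoters (41.2%), 3 of 20 replication promoters (15%) and 16% of 32851 promoters. CCAAT stood in 16 of 17 (94.1%), 15 of 20 (75%) and 33.8%, and an E2F match in 0 of 17, 6 of 20 (30%) and 1.3%. RefSeq promoters matched 17 of 22 mitosis genes and 19 of 24 replication genes. A match is a string of letters and no measured site. The sequences below are the 2 members with the smallest p in each group whose window holds the matches, shown 5′ to 3′ on the gene's strand. Capitals mark TTTGAA and CCAAT on either strand (TTCAAA and ATTGG on the other) in the mitosis genes, and the E2F match in the replication genes.
Cdk1 promoter (chr10:69352913-69353162, minus strand): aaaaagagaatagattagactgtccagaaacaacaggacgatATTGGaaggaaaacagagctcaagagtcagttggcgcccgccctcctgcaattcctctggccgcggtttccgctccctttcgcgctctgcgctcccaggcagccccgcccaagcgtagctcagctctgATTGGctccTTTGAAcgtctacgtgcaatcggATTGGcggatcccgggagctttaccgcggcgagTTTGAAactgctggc
Cdc20 promoter (chr4:118437344-118437593, minus strand): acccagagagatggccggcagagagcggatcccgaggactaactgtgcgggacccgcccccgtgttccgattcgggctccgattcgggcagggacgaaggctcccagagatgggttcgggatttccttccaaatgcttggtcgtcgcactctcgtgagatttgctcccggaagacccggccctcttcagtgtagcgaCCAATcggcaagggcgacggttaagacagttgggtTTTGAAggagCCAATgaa
Mcm5 promoter (chr8:75109259-75109508, plus strand): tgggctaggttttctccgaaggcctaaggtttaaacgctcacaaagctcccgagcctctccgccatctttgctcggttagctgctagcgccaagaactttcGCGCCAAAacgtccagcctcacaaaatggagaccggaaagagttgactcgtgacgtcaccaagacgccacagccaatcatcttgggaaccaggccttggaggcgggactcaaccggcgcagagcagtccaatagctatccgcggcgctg
Mcm7 promoter (chr5:138171884-138172133, minus strand): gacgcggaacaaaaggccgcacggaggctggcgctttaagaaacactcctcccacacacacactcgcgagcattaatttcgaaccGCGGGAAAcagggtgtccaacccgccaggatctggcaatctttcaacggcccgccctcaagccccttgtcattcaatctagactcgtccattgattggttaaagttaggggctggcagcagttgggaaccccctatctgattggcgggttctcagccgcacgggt
In Cdk1 TTTGAA begins 71 and 15 bases before the start, and CCAAT matches lie at 208, 80 and 48. In Cdc20 TTTGAA begins 18 bases before the start, between CCAAT at 53 and at 8. The E2F match of Mcm5 begins 149 bases before its start and that of Mcm7 165 before.

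Inhibitors of cyclin-dependent kinases moved apart. Of 7 tested, 3 were higher and 2 lower. Cdkn1c (p57), which is made by progenitors as they leave the cycle, read 273 to 527 CPM with a median of 407 and then 6.02, 7.81, 5.56 and 4.8 CPM (-6.06 ± 0.27, adjusted p = 5.05e-09). Cdkn1a (p21) went the other way, from a range of 70.2 to 101.7 CPM to 218, 261, 368 and 392 CPM (1.79 ± 0.17, adjusted p = 1.71e-06). The INK4 genes Cdkn2a (1.57 ± 0.20) and Cdkn2b (2.25 ± 0.26) were higher too, and Cdkn2c was lower (-3.65 ± 0.31). None of these 5 overlapped between stages, which was common over all genes tested.

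Of 17 progenitor genes 11 were lower and Six3 was higher (2.72 ± 0.60; 2 were higher without maturation replicate 1 or 2), with a median of -1.51. The Notch ligand Dll1 read 90.3 to 199.8 CPM with a median of 132 and then 2.53, 2.81, 2.75 and 2.37 CPM (-5.71 ± 0.28, adjusted p = 8.23e-09), and the Notch target Hes5 17.2 to 102.1 CPM with a median of 34.3 and then 0.032, 0.0654, 0 and 0 CPM (-10.73 ± 0.88, adjusted p = 4.44e-07). Sox3 was -5.98, Msi1 -2.50 and Pax6 -2.20. Sox2, which astrocytes make too, differed less, at 131 to 245 CPM and then 39.1, 53.6, 116.7 and 110.2 CPM (-1.12 ± 0.30), lower in neuron ctl than in exp1012; it was under 2-fold without maturation replicate 1 (-0.89) or 2 (-0.97) or NPC replicate 6 (-0.99). Sox1, Nes and Rfx4 did not pass, and the maturation libraries read 12.1 to 28.1 CPM of Sox1.

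Of 15 neurogenic transcription factors tested, 12 were lower and 3 higher (1 without maturation replicate 3), with a median of -5.05. Neurog2, a proneural factor of excitatory lineages, read 19.7 to 36.9 CPM with a median of 25.4 and then 0.096, 0.098, 0.0604 and 0.0667 CPM (-8.37 ± 0.35, adjusted p = 3.9e-09). Nhlh2, made in newborn neurons, read 144 to 245 CPM with a median of 161 and then 1.63, 1.96, 2.38 and 1.7 CPM (-6.49 ± 0.23, adjusted p = 1.52e-09). Neither gene overlapped between the stages. Sox4 (-3.38), Sox11 (-5.17) and Insm1 (-3.86), which act in young neurons, were lower as well. The factors of later neurons were the exceptions: Neurod2 rose from a range of 0.0494 to 0.123 CPM to 1.86, 1.63, 4.71 and 3.83 CPM (5.25 ± 0.42), and Myt1l, which represses other fates, was 1.19 ± 0.41 higher (1.05, no longer called, without maturation replicate 3).

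The RNA-binding proteins and DNA-binding regulators that set developmental timing were all lower, 8 of 8 with a median of -6.04. Igf2bp1 read 351 to 699.7 CPM with a median of 549 and then 5.89, 5.55, 4.32 and 4.5 CPM (-6.76 ± 0.27, adjusted p = 2.8e-09). Trim71, a let-7 target, was -8.05 and Lin28b -3.20, while Hmga1 kept 190.3, 194, 135 and 112 CPM (-1.31). Of 17 DNA methylation and Polycomb genes 13 were lower and Mbd2 was higher (1.02 ± 0.12, a call lost under 10 alternatives, without maturation replicate 3 or 4 among them), with a median of -1.93. Ezh2, the methyltransferase of Polycomb repressive complex 2, read 149 to 229 CPM with a median of 161 and then 6.46, 4.64, 5.31 and 6.6 CPM (-4.96 ± 0.21, adjusted p = 3.96e-09), and its paralog Ezh1 31.6 to 62.7 CPM and then 35.8, 33, 40.8 and 39.7 CPM (-0.07 ± 0.20, adjusted p = 0.752). Ezh2 separated the stages and Ezh1 overlapped. Uhrf1, which guides maintenance methylation, was -6.29, and the de novo methylase Dnmt3b -5.21.

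**Figure D2:**
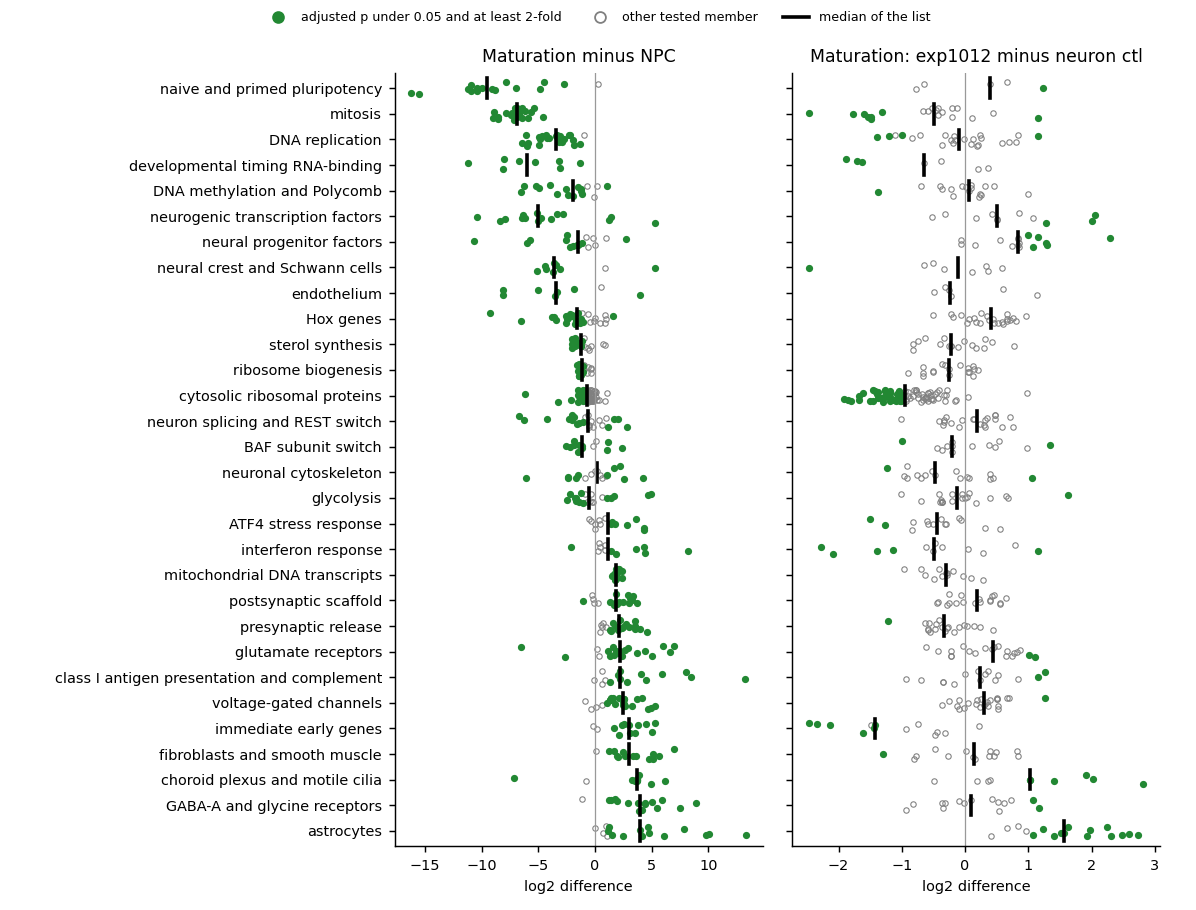
Log2 differences of the tested members of 30 gene lists (1 point each), maturation minus NPC on the left and exp1012 minus neuron ctl within maturation on the right; filled points passed an adjusted p of 0.05 and 2-fold, and black bars are list medians. Mitosis genes lie at -9 to -4.64 on the left, and astrocyte genes lie to the right of 0 in the other panel, with a median of 1.57.

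The genes of the synapse rose. Of 20 presynaptic genes 15 were higher and none lower, with a median of 2.09. Syp, synaptophysin of the vesicle membrane, read 40.5 to 84 CPM with a median of 58.5 and then 806, 759.8, 614 and 515 CPM (3.49 ± 0.21, adjusted p = 3.59e-08). Snap25, of the SNARE complex, read 23.8 to 82.1 CPM with a median of 36.2 and then 709.9, 658, 325 and 265 CPM (3.52 ± 0.38, adjusted p = 3.96e-06). Both separated the stages, and Snap25 was higher in neuron ctl than in exp1012. Cplx1 (complexin, 4.56), Vamp1 (3.94), Syn2 (3.52) and Sv2a (2.99) were higher too. Bsn, Stx1a, Sv2b and Syt1 did not pass.

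Postsynaptic scaffolds followed, with 13 of 18 higher and 1 lower at a median of 1.88. Dlgap1, a scaffold bound to PSD-95, read 2.17 to 9.33 CPM with a median of 3.58 and then 61.7, 56.2, 70.3 and 61.7 CPM (3.66 ± 0.37, adjusted p = 2.47e-06). Camk2a, the kinase of synaptic plasticity, read 7.36 to 11.9 CPM with a median of 10.4 and then 48.2, 40, 45.8 and 40.2 CPM (2.11 ± 0.15, adjusted p = 1.44e-07), without overlap. Camk2b (2.96), Dlg2 (3.35) and Nlgn3 (3.29) were higher. The single lower member was Dlg3 (-1.03 ± 0.14, adjusted p = 2.25e-05), a call that was lost under 6 alternatives, without maturation replicate 1 or 2 among them. Gephyrin (Gphn), Homer1, Lrrtm1 and Nlgn2 did not pass.

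Of 17 cytoskeletal genes of neurons 5 were higher and 5 lower, near the shares over all genes tested (25.5% and 23.5%). Dcx, which binds microtubules in migrating neurons, read 467 to 1400 CPM with a median of 689 and then 13.2, 9.87, 12.3 and 11.8 CPM (-6.06 ± 0.35, adjusted p = 2.98e-08). Nefh, the heavy neurofilament of mature axons, read 3.89 to 8.57 CPM with a median of 4.6 and then 104, 94.3, 104 and 84.2 CPM (4.22 ± 0.22, adjusted p = 1.35e-08). Both separated the stages without overlap, in opposite directions. Dpysl3 (-2.36), Ina (-2.43), Nefm (-1.73) and Tubb3 (-1.53) were lower, and Map1a (2.57), the axonal motor Kif5a (2.20), Stmn3 (1.64) and Uchl1 (1.04) higher. Mapt, Stmn2 and Map1b did not pass, and Map2 passed under 2-fold (0.64 ± 0.24, adjusted p = 0.0303). In exp1012 alone 3 of the 17 were higher in place of 5.

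Receptors for the fast transmitters were among the largest neuronal differences. Of 20 glutamate receptor genes 16 were higher and 2 lower, with a median of 2.16. Gria1, an AMPA receptor subunit, read 1.15 to 6.86 CPM with a median of 1.86 and then 183, 200.1, 342 and 339.5 CPM (6.60 ± 0.52, adjusted p = 3.24e-07). Grin1, the subunit that every NMDA receptor needs, read 5.2 to 10.7 CPM with a median of 6.8 and then 184, 169.5, 145 and 120.1 CPM (4.43 ± 0.21, adjusted p = 6.99e-09), and Grm7, a presynaptic metabotropic receptor, 0.129 to 0.532 CPM with a median of 0.217 and then 32.4, 32.8, 32.8 and 30.8 CPM (6.93 ± 0.40, adjusted p = 2.62e-08). All 3 separated the stages. Grin2b (2.33 ± 0.48) and Grin2a (2.23 ± 0.30), which replace each other in the NMDA receptor as the brain matures, rose side by side, and per kb of annotated exon Grin2b stood at 2.66 CPM and Grin2a at 0.434 at maturation. The lower members were Grm2, from a range of 36.9 to 86.5 CPM to 0.448, 0.523, 0.634 and 0.7 CPM (-6.57 ± 0.36), and the kainate subunit Grik3 (-2.69 ± 0.32).

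Of 16 GABA-A and glycine receptor genes tested 15 were higher and none lower, with a median of 3.96. Glrb, which anchors glycine receptors to gephyrin, read 7.7 to 9.95 CPM with a median of 8.57 and then 137, 134, 111 and 99.4 CPM (3.80 ± 0.14, adjusted p = 1.52e-09). Gabrg3 read 0.265 to 0.86 CPM with a median of 0.497 and then 28.6, 29.6, 33.9 and 28.4 CPM (5.94 ± 0.28, adjusted p = 7.94e-09), and Gabra3 1.22 to 3.28 CPM with a median of 1.67 and then 53, 56.1, 31.9 and 29.7 CPM (4.44 ± 0.32, adjusted p = 1.48e-07). None of the 3 overlapped. Glra3 had no count at the NPC stage and 1.03 to 1.54 CPM at maturation, at least 142-fold higher. The cerebellar subunit Gabra6 was at 0 in all 10 libraries.

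Voltage-gated channels numbered 20 higher of 24 and none lower, with a median of 2.46. Scn1a, the sodium channel of fast-spiking neurons, read 0.483 to 3.83 CPM with a median of 1.81 and then 68.8, 66.1, 91.9 and 81.6 CPM (5.29 ± 0.41, adjusted p = 2.87e-07), whereas the fetal Scn3a read 32.6 to 91.9 CPM and then 37, 33.6, 50.3 and 51.5 CPM (-0.35 ± 0.27, adjusted p = 0.257). The first separated the stages and the second overlapped. The subunit Scn2b (3.73) and the calcium channel Cacna1a (2.47) were higher, and Cacna1g passed under 2-fold in the lower direction (-0.89 ± 0.18).

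Both fast transmitter identities were present. Gad1, which makes GABA, read 2.16 to 21.1 CPM with a median of 9.72 and then 204, 212, 216 and 198 CPM (4.19 ± 0.47, adjusted p = 5.75e-06). Slc32a1, the vesicular GABA and glycine transporter, read 13.8 to 25.4 CPM with a median of 19.8 and then 103, 95.3, 93.6 and 88.1 CPM (2.26 ± 0.17, adjusted p = 1.72e-07). Slc17a6, the vesicular glutamate transporter of subcortical neurons, read 10.4 to 40.1 CPM with a median of 15 and then 74.5, 71.6, 66.2 and 61.5 CPM (1.89 ± 0.33, adjusted p = 0.000237). All 3 rose without overlap. Its cortical counterpart Slc17a7 read 1.41 to 2.8 CPM and then 1.73, 1.31, 1.03 and 1.2 CPM (-0.45 ± 0.30, adjusted p = 0.192). Per kb of exon the maturation means were 33.9 CPM for Slc32a1, 12.7 for Slc17a6 and 0.244 for Slc17a7. Of 7 GABA identity genes 4 were higher and Dlx2, a factor of forebrain interneurons, lower (-1.24 ± 0.43), a call that was lost under 7 alternatives, those without maturation replicate 1 (-1.03) or 2 (-1.04) among them. Cholinergic genes gave 3 higher and 2 lower of 6, with Ache (3.77 ± 0.30) and the choline transporter Slc5a7 (3.09 ± 0.41) higher and the motor neuron factors Lhx3 (-4.57 ± 0.70) and Isl1 (-2.24 ± 0.40) lower. Chat, which makes acetylcholine, read 0.23 to 1.15 CPM and then 0.896, 1.44, 2.33 and 1.4 CPM (1.09 ± 0.41, adjusted p = 0.0324) and lost its call under 13 alternatives. Monoamine genes gave 1 higher (Tph2, 3.87 ± 0.42) and 3 lower of 8 (5 without maturation replicate 1, 3 or 4), among them the noradrenaline transporter Slc6a2 (-6.91 ± 0.52) and Th (-1.39 ± 0.32).

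Pairs of genes that replace each other during neuronal development were followed together. The chloride exporter Slc12a5 (KCC2), which makes GABA inhibitory, read 21.1 to 72.7 CPM with a median of 31.5 and then 180.4, 167, 175 and 161 CPM (2.16 ± 0.30, adjusted p = 4.19e-05). Its importing partner Slc12a2 (NKCC1) read 46.2 to 76.5 CPM and then 52.1, 66.8, 107.8 and 124 CPM (0.52 ± 0.23, adjusted p = 0.0552), and its sign turned in neuron ctl alone (-0.08). Ptbp1, the repressor of neuronal exons in progenitors, read 278 to 515 CPM with a median of 431 and then 81.6, 88.8, 121 and 117.6 CPM (-2.02 ± 0.20, adjusted p = 2.17e-06). Ptbp2, which takes its place in young neurons, was also lower (-1.38 ± 0.15, adjusted p = 5.02e-06). Rbfox3 (NeuN) passed under 2-fold (0.59 ± 0.24, adjusted p = 0.045). Actl6a, the progenitor subunit of the BAF remodelling complex, read 97.7 to 123 CPM with a median of 112 and then 17.6, 21.3, 15.6 and 18.6 CPM (-2.61 ± 0.13, adjusted p = 1.12e-08), and its neuronal counterpart Actl6b 8.34 to 37 CPM and then 24.9, 23.2, 11.7 and 12.5 CPM (0.10 ± 0.40, adjusted p = 0.841). Actl6a separated the stages, whereas Actl6b overlapped and changed sign with the setting.

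Over 23 splicing and REST pathway genes 10 were lower and 4 higher, with a median of -0.66. Rest, which silences neuronal genes outside neurons, was -2.02 ± 0.25 and its corepressor Rcor1 -1.57 ± 0.15. The epithelial splicing factor Esrp1 fell from a range of 8.51 to 21.6 CPM to 0.128, 0.229, 0.0604 and 0.1 CPM (-6.74 ± 0.44), and Mbnl1 rose from a range of 14.5 to 16.8 CPM to 82, 92.5, 135 and 128 CPM (2.81 ± 0.15, adjusted p = 1.67e-08). The neuronal regulators Elavl4 (-1.86 ± 0.25) and Nova2 (-2.27 ± 0.24) were among the lower genes. Of 13 BAF genes 8 were lower and 3 higher (1 in exp1012 alone), the ATPase Smarca4 at -1.82 ± 0.18 and its alternative Smarca2 at 2.39 ± 0.22. Dpf1 (-1.17 ± 0.33) and Dpf3 (-1.83 ± 0.35) were among the lower, and Ss18l1 (-0.18 ± 0.23) did not pass.

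Astrocyte genes rose, by unequal amounts in the 2 maturation pairs, neuron ctl and exp1012. Of 17 tested 13 were higher and none lower, with a median of 3.94. Gfap, the intermediate filament of astrocytes, read 0.0247 to 0.159 CPM with a median of 0.0754 and then 197, 275, 1490 and 1673 CPM (13.31 ± 0.81, adjusted p = 4.35e-08). Aqp4, the water channel of their endfeet, read 0.344 to 1.21 CPM with a median of 0.599 and then 155, 218, 1094 and 1158 CPM (10.01 ± 0.71, adjusted p = 1.32e-07). Both lay far above all NPC libraries, with exp1012 several times over neuron ctl. S100b (9.78), Mlc1 (7.88) and Ndrg2 (4.77) were higher too. Sox9, which progenitors make too, did not pass (1.05 ± 0.47, adjusted p = 0.0611) but did without maturation replicate 1 (1.35) or 2 (1.32). Summed over the list, levels were 875 to 1058 CPM at the NPC stage, 2440 and 2993 in neuron ctl and 8592 and 8675 in exp1012.

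Oligodendrocyte genes divided, with 6 higher and 6 lower of 15. The lineage factor Olig1 read 2.23 to 5.76 CPM and then 8.9, 10.4, 33.7 and 36.8 CPM (2.81 ± 0.43), highest in exp1012. Myrf, the regulator of myelin genes, fell from a range of 16.1 to 43.5 CPM to 2.37, 2.74, 1.54 and 2.27 CPM (-3.79 ± 0.31), and Mbp from a range of 47.6 to 65.4 CPM to 16.6, 13.1, 18.2 and 17.2 CPM (-1.73 ± 0.15). Mag and Opalin, of mature oligodendrocytes, did not have the counts to be tested.

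Genes of mesenchymal cells rose too. Of 14 fibroblast and smooth muscle genes 13 were higher, with a median of 3.03. Acta2, smooth muscle actin, read 18.5 to 77.8 CPM with a median of 32.3 and then 1800, 2142, 1109 and 1145 CPM (5.15 ± 0.42, adjusted p = 4.49e-07). Myh11, the smooth muscle myosin, read 0.371 to 1.92 CPM with a median of 0.822 and then 60.5, 53, 43.2 and 51.2 CPM (5.65 ± 0.40, adjusted p = 1.43e-07), and the proteoglycan Dcn 2.95 to 15.2 CPM with a median of 7.2 and then 164, 222, 223 and 209 CPM (4.76 ± 0.39, adjusted p = 4.3e-07). No gene of the 3 overlapped. Thy1 (6.93) is made by fibroblasts and by mature neurons. Matrix genes gave 6 higher and 3 lower of 15: Timp3, an inhibitor of metalloproteases, was 4.41 ± 0.23, and the embryonic laminin Lama1 (-3.46 ± 0.36) and versican Vcan (-3.94 ± 0.26) were lower. The sum over the fibroblast and smooth muscle list was 163.1 to 389 CPM at the NPC stage, 4907 and 5594 in neuron ctl and 3169 and 3284 in exp1012. Its part in the results was not tested.

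Genes of other lineages were mostly lower. Neural crest genes were 7 lower and 1 higher of 9, with Tfap2b at -5.15 ± 0.40 and the receptor Erbb3 at -4.44 ± 0.41. The higher one was Egr2, which is also an immediate early gene. Endothelial genes were 6 lower and 1 higher of 8: Pecam1 went from a range of 17.2 to 54.1 CPM to 0.704, 1.31, 0.664 and 1.03 CPM (-5.01 ± 0.40), and Tie1 and Cldn5, at 0 in all maturation libraries, were at least 32-fold and 31-fold lower. Muscle genes were 5 lower and 1 higher of 7, and endoderm genes 5 lower and none higher of 7 (3 lower in exp1012 alone, and 1 higher without maturation replicate 2 or 3). A joint list of choroid plexus and motile cilia genes had 9 higher and Otx2 lower (-7.17 ± 0.92) of 11, and most of the higher ones were cilia genes. The choroid plexus genes were mixed. Kl was higher (3.73 ± 0.33), Folr1 passed under 2-fold in the lower direction (-0.82 ± 0.31), and Kcnj13 did not have the counts to be tested. Foxj1, the master factor of motile cilia, read 5.75 to 17.4 CPM with a median of 7.88 and then 41, 57.2, 209 and 190.1 CPM (3.71 ± 0.48, adjusted p = 2.23e-05), and the water channel Aqp1 0.132 to 0.272 CPM and then 9.6, 15.3, 15.6 and 12.9 CPM (6.20 ± 0.28). The choroid plexus product Ttr was under 1 CPM in all 10 libraries.

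Hox genes, which mark hindbrain and spinal cord, were read at both stages. Of 30 tested 20 were lower and Hoxc13 higher (1.60 ± 0.38; 2 were higher without maturation replicate 1 or 2), with a median of -1.6. Hoxd3 read 54.3 to 95.8 CPM with a median of 73.2 and then 10.7, 10.7, 14.1 and 13.2 CPM (-2.55 ± 0.19, adjusted p = 1.99e-07), without overlap, and Hoxc5 was -3.44. Hoxa5 did not pass, at 15.6 to 69.2 CPM and then 28.6, 26, 32.7 and 29.4 CPM (-0.42 ± 0.38, adjusted p = 0.333). The forebrain factor Emx1 was under 1 CPM in every library, and Nkx2-1 was at 0 at maturation. Of 12 forebrain and midbrain factors 5 were lower and 2 higher, and Lmx1b, of serotonin and dopamine neurons, fell from a range of 40.9 to 97.3 CPM to 9.83, 8.69, 11.1 and 9.1 CPM (-2.59 ± 0.27).

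Genes of complement and antigen presentation rose. The microglia genes given above were at 0 (C1qa, C1qb, C1qc, Tyrobp) or low (P2ry12, up to 2.81 CPM in exp1012), and their part in this result was not tested. Of 15 genes 11 were higher and none lower, with a median of 2.22. C3, the central complement component, read 0.238 to 1.06 CPM with a median of 0.39 and then 2763, 3517, 5159 and 6130 CPM (13.23 ± 0.49, adjusted p = 1.55e-09). The protease C1ra read 0.573 to 1.79 CPM with a median of 1.17 and then 54, 76.5, 81 and 81.8 CPM (5.93 ± 0.29, adjusted p = 9.28e-09). Both lay apart without overlap. C1s1 (4.53) and C4b (8.48) rose, the last with a close copy that may share its reads. B2m, the light chain of class I molecules, was 2.82 ± 0.27. Of 12 interferon-response genes 6 were higher and Rsad2 lower (-2.15 ± 0.55), with a median of 1.13, and Ifitm3 read 25.9 to 44.1 CPM with a median of 38.8 and then 420.4, 451, 411 and 494 CPM (3.62 ± 0.18, adjusted p = 8.61e-09).

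Immediate early genes, which neurons switch on with activity, were 11 higher of 13 with a median of 3.02. Bdnf, the neurotrophin among them, read 1.42 to 3.24 CPM with a median of 2.29 and then 87.8, 77.8, 62.3 and 60.5 CPM (4.99 ± 0.22, adjusted p = 5.05e-09). Fos read 6.06 to 11.7 CPM with a median of 9.85 and then 114.6, 125, 65.1 and 129 CPM (3.54 ± 0.24, adjusted p = 1.01e-07), and Egr1 9.67 to 15.4 CPM with a median of 12.2 and then 240.5, 275, 65.5 and 118.6 CPM (3.80 ± 0.34, adjusted p = 8.41e-07). None overlapped, and Egr1 was uneven between the maturation pairs. Of 14 genes of the ATF4 stress response 7 were higher and none lower. Ddit3 (CHOP) read 11.9 to 23.1 CPM with a median of 12.9 and then 270, 261, 100.1 and 87.2 CPM (3.57 ± 0.34, adjusted p = 1.55e-06), and Chac1 was 4.30. The amino acid enzyme genes of the same response Asns, Psat1 and Shmt2 did not pass.

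In glycolysis 5 of 20 genes were higher, near the share over all genes tested, and 8 lower. The neuronal enolase Eno2 read 8.51 to 31.1 CPM with a median of 18.7 and then 714, 647, 525 and 504 CPM (4.95 ± 0.32, adjusted p = 7.19e-08) while Eno1 fell from a range of 1199 to 1841 CPM to 628, 639.5, 708 and 732 CPM (-1.10 ± 0.15), and each separated the stages. Aldoc, the aldolase of astrocytes, was 4.64. The glucose transporters Slc2a1 (-1.67 ± 0.27) and Slc2a3 (-2.51 ± 0.32), Ldha (-1.72 ± 0.20) and Pkm (-1.24 ± 0.14) were lower. Sterol synthesis was lower in 10 of 17 and higher in none at a median of -1.22, with Fdps, which makes farnesyl diphosphate, at 103 to 160.1 CPM with a median of 139.9 and then 43.1, 47.8, 26.1 and 28.7 CPM (-1.91 ± 0.20, adjusted p = 3.14e-06), the lowest NPC library well under the other NPC libraries. All 13 protein-coding genes of the mitochondrial genome were higher, at 1.53 to 2.36 (median 1.86). mt-Cytb read 1914 to 2984 CPM and then 8950, 6701, 6954 and 5302 CPM, without overlap.

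Genes of ribosome production were lower in 11 of 18 and higher in none, with a median of -1.12, such as Npm1 from a range of 1014 to 1910 CPM to 596, 602, 430.2 and 414 CPM (-1.47 ± 0.20). Of 81 cytosolic ribosomal protein genes tested 19 were lower, the same share as over all genes tested (23.5%), 30 passed under 2-fold and none was called higher (1 without maturation replicate 3), with a median of -0.72. This count rests on the choice of libraries: 12 were lower in neuron ctl alone, 62 in exp1012 alone, 34 without maturation replicate 1, 30 without maturation replicate 2, 29 against NPC range 1 and 12 against NPC range 2. Rpl4 read 1118 to 2008 CPM and then 608, 667, 675 and 643 CPM (-1.31 ± 0.18, adjusted p = 2.74e-05). Ribosomal protein genes have many processed copies, and how reads were shared with them is uncertain.

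**Figure D3:**
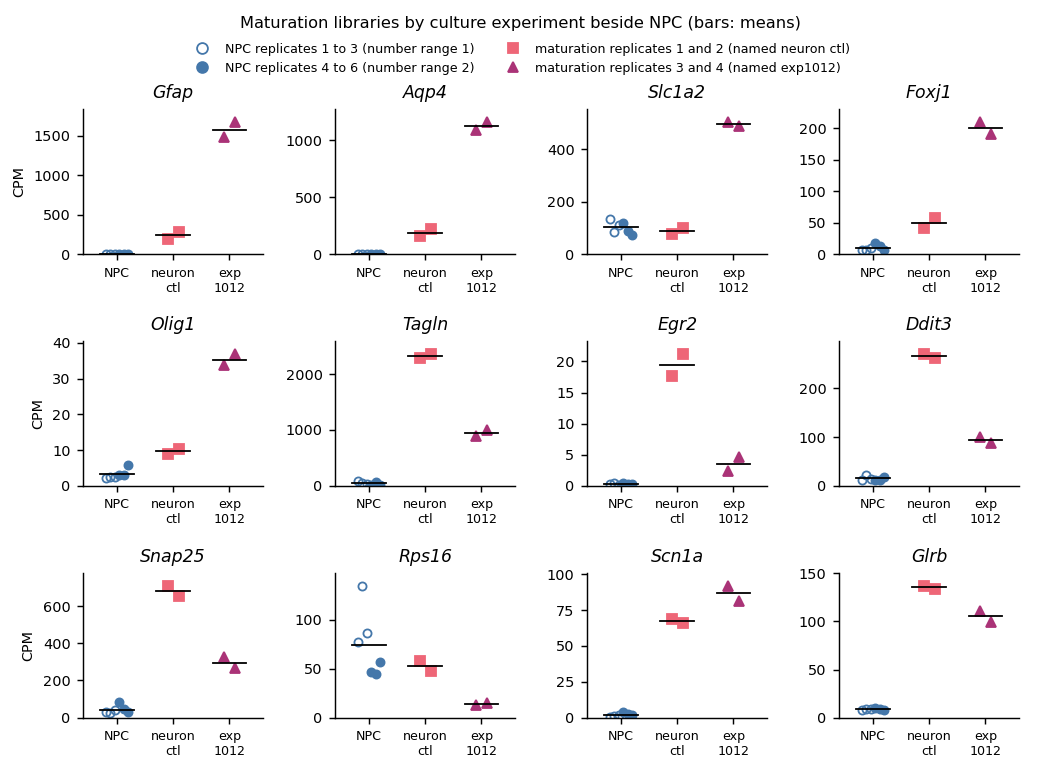
CPM of 12 genes (linear axes from 0) in the 6 NPC libraries and in the maturation libraries named neuron ctl (2) and exp1012 (2); bars are means. Gfap, Aqp4, Slc1a2 and Foxj1 are highest in exp1012, and Tagln, Egr2, Ddit3, Snap25 and Rps16 are higher in neuron ctl.

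Between the 2 maturation pairs, 2 libraries each, genes were called by edgeR's quasi-likelihood test at 2-fold and an adjusted p under 0.05. Of 16346 tested, 1082 (6.62%) were higher in exp1012 and 1415 (8.66%) higher in neuron ctl. These p-values rest on the spread within the pairs alone. Astrocyte genes were 13 higher in exp1012 and none lower, with a median of 1.57. Slc1a2, the main glutamate transporter of astrocytes, read 77.6, 98.7, 501 and 488 CPM against 71.6 to 134 CPM at the NPC stage, so neuron ctl lay within the NPC range and exp1012 above it. Its stage difference was 1.52 ± 0.46 (adjusted p = 0.0106) and that of exp1012 minus neuron ctl 2.48 (adjusted p = 1.34e-07), and with neuron ctl alone the stage difference was -0.26. Gfap differed by 2.74 and Foxj1 by 2.02, and 6 cilia genes were higher in exp1012. Neuron ctl was higher in 36 ribosomal protein genes, in 6 immediate early genes (Egr2 at -2.47, Nr4a1 at -2.13), in 7 mitosis genes (Kif11 went the other way, at 1.16; the 22 genes summed to under 40 CPM in every maturation library), in Snap25 (-1.22), Tagln (-1.30) and Ddit3 (-1.51). Of the 8244 stage calls 90% were made in the same direction with neuron ctl alone and 88% with exp1012 alone.

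The same stages were compared in WSB controls, 4 maturation and 6 NPC libraries that share none with B6. The WSB libraries fall into the same number ranges, range 1 and 2 at the NPC stage and range 3 at maturation, so stage and batch cannot be told apart there either, and a difference between the batches would enter both strains. Of 15967 genes tested in both strains, 6153 were called in the same direction in both, 80.4% of the B6 calls and 76.3% of the WSB calls, and 78 in opposite directions. Pearson's r over these genes, which share libraries and are no replicates, was 0.901. The difference between the strains was tested as an interaction with edgeR over 17608 genes. The stage difference was more positive in WSB for 1610 (9.14%) and more negative for 446 (2.53%). Pluripotency genes were 10 of 16 on the positive side and none on the other: Nanog fell from 4.11 ± 1.51 CPM to 0.344 ± 0.147 CPM in WSB (mean ± SD, -3.58) and in B6 from a range of 58.7 to 211 CPM to 0 to 0.16 CPM, a difference of 6.43 ± 0.81 (adjusted p = 3.8e-05). Nanog thus read lower in WSB than in B6 already at the NPC stage. The submitters' notes name only GRCm38 as the genome, and whether WSB reads were counted as fully as B6 reads was not tested. Gapdh, for example, averaged 3250 CPM in B6 and 181.2 CPM in WSB NPC libraries. Mitosis genes were 9 of 22 on the positive side, Cdk1 at -4.22 in WSB (2.70 ± 0.38, adjusted p = 0.000107). Matrix genes were 9 of 15, with Col4a1 at -0.05 ± 0.24 in B6 (adjusted p = 0.866) and 1.81 in WSB (1.90 ± 0.32, adjusted p = 0.00053). Stress genes of ATF4 were 6 of 14 on the negative side, with Chac1 at 1.67 in WSB (-2.59 ± 0.32, adjusted p = 2.74e-05). Synaptic lists had 0 on the positive side and 3 of 20 presynaptic and 4 of 18 postsynaptic genes on the negative. The peptide transporter Slc15a2 had the smallest p of the positive side: it read 7.49 ± 1.97 CPM and 20.1 ± 7.49 CPM in B6 and 0.0545 ± 0.049 CPM and 78.1 ± 27.2 CPM in WSB (8.86 ± 0.55, adjusted p = 6.7e-09).

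Another pair of B6 control groups shares a number range: 4 uncut libraries of the axon stage and NPC replicates 4 to 6 lie in range 2. There 3663 of 16779 genes were higher at the axon stage (21.8%) and 3184 lower (19%). To avoid shared libraries it is set beside maturation against NPC range 1 only. Of 16281 genes tested in both, 4960 were called in the same direction, 62.1% of the calls of maturation and 76% of the calls of axon, of 5069 called in both (r over genes 0.827). All 22 mitosis genes, 15 of 16 pluripotency genes and 8 of 8 timing genes were lower at the axon stage, and 19 of 20 presynaptic and 15 of 15 GABA-A and glycine receptor genes higher. Mitosis genes fell less by value, Top2a at -3.08 ± 0.47 beside -8.84 and Cdk1 at -2.19 ± 0.45 beside -7.01. Gfap was 13.63 ± 0.53 beside 13.11. Other genes differed in value or sign. Dcx was -0.68 ± 0.31 (adjusted p = 0.0855) beside -5.69, Tubb3 0.80 ± 0.39 (adjusted p = 0.106) beside -1.61 and Ddit3 -0.25 ± 0.16 (adjusted p = 0.209) beside 3.47. C3 was 4.00 ± 0.84 beside 13.99 and Lcn2 2.28 ± 0.78 beside 11.76. Of 13 mitochondrially encoded genes 1 was higher at the axon stage, where all 13 were higher at maturation. The difference between these 2 comparisons was not tested. When all 70 libraries were fitted with number range as a term, 6577 of the 8244 calls (79.8%) were made in the same direction and 223 changed sign. Among 235 genes named by rule 26 lost the call there, among them Fos, Ddit3, Atf4, Cdkn2a, Cdkn2b, Isl1, Th, Esrp1, Smarca2, Otx2 and Six3. That fit ties range 3 to the others only through WSB libraries of the axon stage that carry another batch number.

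**Figure D4:**
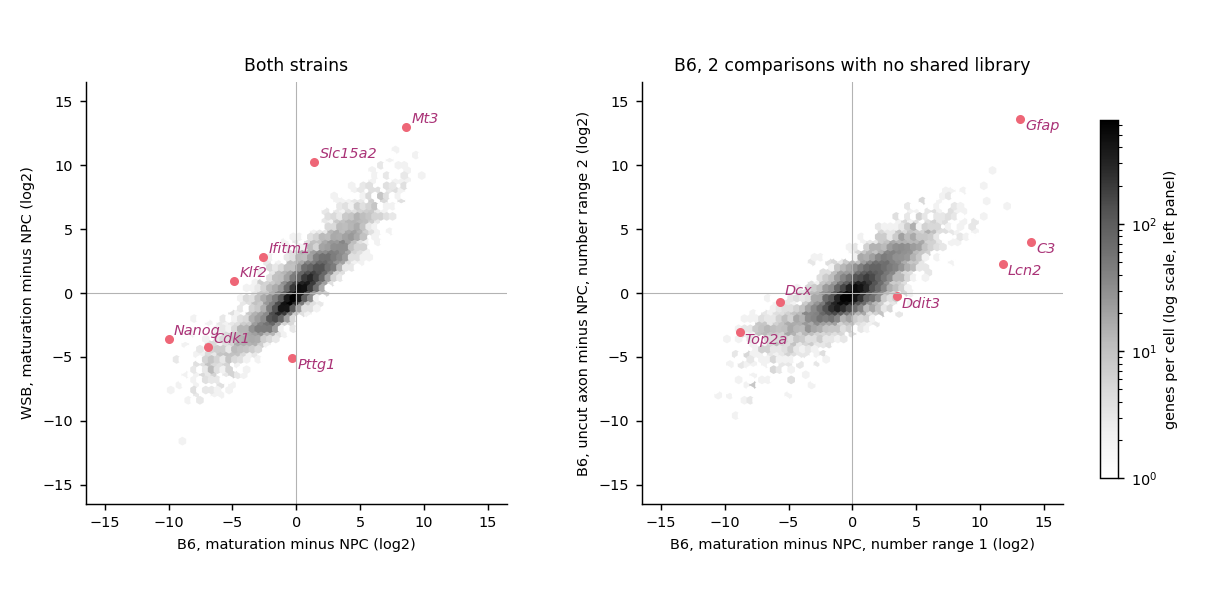
Each cell of the grey maps counts genes by 2 log2 differences. Left: B6 against WSB, maturation minus NPC; right: maturation minus NPC of number range 1 against uncut axon minus NPC of range 2, both in B6. Slc15a2, Ifitm1 and Klf2 lie above the diagonal on the left and Pttg1 below it, and C3, Lcn2 and Ddit3 lie low on the right.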

How the data were processed

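Expected counts per gene were deposited by the authors, 1 column per sequencing run. Per the submitters' processing notes Bowtie2, RSEM, featureCounts and limma were used with GRCm38, and versions, annotation release and counting strand are not given in the sources used here, so reads of overlapping or antisense genes may be shared. Of the deposited values 9.318% were not whole.

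Libraries were grouped by the deposited condition and labels. Runs of 1 library were summed and the counts rounded. Genes passing filterByExpr were tested with edgeR 4.0.16 (R 4.3.3, TMM factors, robust quasi-likelihood test, 2 groups), with Benjamini-Hochberg adjustment over all genes tested and a call at an adjusted p of 0.05 and 2-fold. On simulated counts for these genes 198 of 200 changed genes were recovered, with 7 false calls. The simulation used the same dispersion for every gene and independent libraries, without the close maturation pairs. It checks that the procedure runs as meant and does not measure how reliable the calls are in these data. Gene names came from the GENCODE annotation, where 37607 of 38924 identifiers matched. Floors are 3 counts over a group, 0.00911 CPM (NPC) and 0.024 CPM (maturation), and cover counting error only.

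Alternatives were DESeq2 1.42.0, other scaling and filters, subsets of libraries and fits with more libraries. The members, the gene lists and the tests were chosen with earlier results of these data known. Genes named by rule were the 12 with the smallest p and the 8 with the largest difference in each direction and the 5 with the smallest p in each list; other list members were picked after their values were seen, and a few genes of either kind are not reported here.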

Additional observations from a re-analysis of the deposited data

Results flagged for a closer look

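In 11 of 386 gene and group combinations tested, 1 library lay far from the others of its group (7 in the NPC group, 4 at maturation); chance alone gives about 1 in 20. At the NPC stage Rcor2 reached 242.5 CPM in its highest library (median 172.8) and Nhlh2 245.1 CPM (160.7). The lowest NPC library stood apart for Gad2 at 7.769 CPM (30.45), Bgn at 4.439 (11.69), Sox17 at 0.3209 (1.259), Gata4 at 1.284 (4.911) and Fdps at 102.9 (139.9). At maturation the highest library stood apart for Timp3 at 1168 CPM (median 987.6) and Flt1 at 4.542 (2.693), and the lowest for Mcm6 at 6.401 (8.487) and C1ra at 54.03 (78.74). The groups did not overlap for 9 of these 11 genes, and a lack of overlap was common over all genes tested.

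The stage difference itself differed between the strains in the edgeR interaction test for genes with the smallest p in each direction. It was more positive in WSB than in B6 on the log2 scale by 8.86 ± 0.55 for Slc15a2 (adjusted p = 6.7e-09), 4.21 ± 0.28 for Myo7a, 5.41 ± 0.38 for Ifitm1, 4.18 ± 0.36 for Got1l1, 3.02 ± 0.27 for Tuba4a and 4.40 ± 0.42 for Mt3 (adjusted p = 2.56e-06). It was more negative for Pttg1 at -4.72 ± 0.48 (adjusted p = 4.36e-06), Arl14ep at -1.22 ± 0.14, Rusc2 at -1.62 ± 0.18, Phf10 at -1.49 ± 0.17, Cxadr at -1.68 ± 0.19 and Slc6a9 at -1.90 ± 0.22. Ifitm1 and Tuba4a have close copies whose reads may be shared.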

How the results depend on the processing

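Higher and lower stage calls stayed within 1.5 times the reported 4292 and 3952 under every alternative run: 5161 and 4450 with DESeq2, 3163 and 2923 with glmTreat against 2-fold, 5075 and 4973 with no filter, 5187 and 4339 with all 70 libraries, and 4148 to 4384 and 3819 to 4178 when 1 library was left out. Genes more negative in WSB numbered 278 with NPC libraries of range 2 only, beside 446. In the fit of all 70 libraries Slc18a2 (2.24), Bcas1 (-1.86), Cd68 (-0.86) and Slc12a2 (-0.02) changed sign, and Slc12a2 also with neuron ctl only (-0.08). Actl6b, which did not pass, changed sign with no filter (-0.07), NPC range 2 only (-0.29), exp1012 only (-0.54), and without maturation replicate 1 (-0.13), maturation replicate 2 (-0.08) or NPC replicate 1, 2 or 6 (-0.01, -0.00 and -0.05); left-out libraries gave -0.13 to 0.49. Among list genes picked after their values were seen, sign changed for Klf4 (-1.29 with all 70 libraries, -0.13 with exp1012 only), Slc17a7 (1.07 with all 70 libraries), Slc1a2 and Sox9 (-0.26 and -0.58 with neuron ctl only), Ezh1 (0.07 with NPC range 1 only, 0.11 without NPC replicate 6, 0.00 with exp1012 only) and Col4a1 (0.00 with NPC range 2 only, 0.19 with exp1012 only, 0.10, 0.03 and 0.05 without maturation replicate 1 and NPC replicates 1 and 6; left-out libraries gave -0.18 to 0.10). The cause was not tested. Of 235 stage genes named by rule, 200 kept direction and call under all of these. Counts of list members moved by over 1.5 times in 72 cases of 924. Those of ribosomal proteins ranged from 12 to 62, and the others started from 5 or fewer. Low genes limit precision: 122 tested genes were at 0 in all maturation libraries and 27 in all NPC libraries. No paired analysis was possible because no label ties a maturation library to an NPC library. The maturation titles carry letters, and the numbers in the sample names are not said to mark the same culture.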
